A study of Mus musculus with 2 samples.

Results

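Lysosomal hydrolases and membrane proteins are the enzymes that break down material inside the lysosome, the acidic degradative compartment of the cell, and the proteins of its limiting membrane. The set held 42 genes, chosen by name: 11 proteases, 12 glycosidases, 5 sulfatases, 6 genes of lipid handling, 7 genes of membrane proteins and Grn, which encodes progranulin. The proton pump and the transcription factors of the lysosome were no part of it. All 42 genes had a probe among the 31705 gene or transcript names on the array, and 40 of them were measured, against 14874 names measured in all. A gene counted as measured when, on each array, its brightest probe was well above background in the KO or the WT RNA, the same RNA on both. Galc and Arsb did not meet this.

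The study compared Lamtor1-deficient (KO) with wild-type (WT) mouse CD4+ T cells on 2-colour Agilent arrays, and its title places the question in autoimmunity mediated by these cells. The KO group was 1 RNA extract of Lamtor1-deficient CD4+ T cells, and the WT group was 1 extract of wild-type CD4+ T cells. The same pair of RNAs was hybridised on 2 arrays with the dyes exchanged, KO in Cy5 and WT in Cy3 on one and KO in Cy3 and WT in Cy5 on the other. Both groups came from C57BL/6J spleen, from which naive CD4+CD62L+ cells were isolated magnetically, and both were cultured for 5 days on plate-bound antibody to CD3 with antibody to CD28, 50 ng/ml of IL-2 and 1 ng/ml of human TGFβ. Since the protocol for RNA extraction names naive cells, the labels do not settle whether cells before or after the culture were extracted. The allele, any Cre driver, the age of the mice and the number of animals per extract are not given in the sources used here.

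Most soluble lysosomal hydrolases are made in the endoplasmic reticulum, receive a phosphorylated mannose tag in the Golgi and are carried by receptors to the lysosome, where proteases activate many of them. Lamtor1 anchors the Ragulator complex to the lysosomal surface, where Ragulator and the Rag GTPases recruit the kinase complex mTORC1. Active mTORC1 keeps TFEB-family transcription factors in the cytosol, and these factors bind an E-box, CACGTG, in the promoters of many lysosomal genes. In cytotoxic lymphocytes the granules that store granzymes are lysosome-related organelles that share many of these enzymes.

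Lamtor1 itself had normalized log2 intensities of 8.08 (KO labelled with Cy5) and 8.14 (KO labelled with Cy3) in the KO extract, against 10.04 and 10.07 in the WT extract. Its log2 ratio of KO over WT was -1.95 ± 0.03 (technical SD of the 2 arrays). Throughout, ± is this technical SD over 2 hybridisations of 1 RNA pair, so biological replicates are lacking, no test was possible, and no p-value is given. Paired values give the array with KO in Cy5 first and the array with KO in Cy3 after it. The KO channel was well above background at 43.7% to 51.7% of the non-control spots and the WT channel at 48.4% to 48.8%, and no spot was saturated. The number of arrays limits the precision.

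Most measured members leaned towards the KO extract, by mostly less than 2-fold, after loess or relative to all measured genes, but not under median centring alone. Of the 40 measured members, 27 had a ratio above 0 on both arrays, 11 had a ratio below 0 on both, and the 2 lipid-handling genes Asah1 and Npc2 were of mixed sign. Over all measured genes 38.6% lay above 0 on both arrays and 44.3% below 0, where the measured members had 67.5% above and 27.5% below. The members' median log2 ratio was 0.50, with a range of -0.65 (Fuca1) to 2.89 (Ctsw), against a median of -0.02 over all measured genes. A gene was called higher or lower when both arrays put it past 2-fold on the same side. By this rule 4 members were called higher (Ctsw, Ctsc, Cln3 and Ctsd) and 0 lower of 40, beside 2.46% of all measured genes called higher and 6.88% called lower. These directions depend on the scaling. Median centring in place of loess moved the median of all measured genes to -0.37 and the members' median to -0.046. It left 7 members above 0 on both arrays, 9 below 0 on both, the others of mixed sign, and 1 call (Ctsw). Over all measured genes 111 were then called higher and 881 lower, against 366 and 1024 after loess. After subtraction of the all-gene median from each median-centred array, the members' median was 0.36, with 22 above 0 on both arrays and the same 4 members called. In this setting 0 of the 40 members' means differed in sign from loess. Of all measured genes, 34.3% then lay above 0 on both arrays, 2.37% were called higher and 6.08% lower. Values given below under median centring alone are to be read beside its all-gene median of -0.37. Both extracts are bulk RNA, in which fewer cells of a type and less RNA per cell cannot be told apart.

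**Figure D1:**
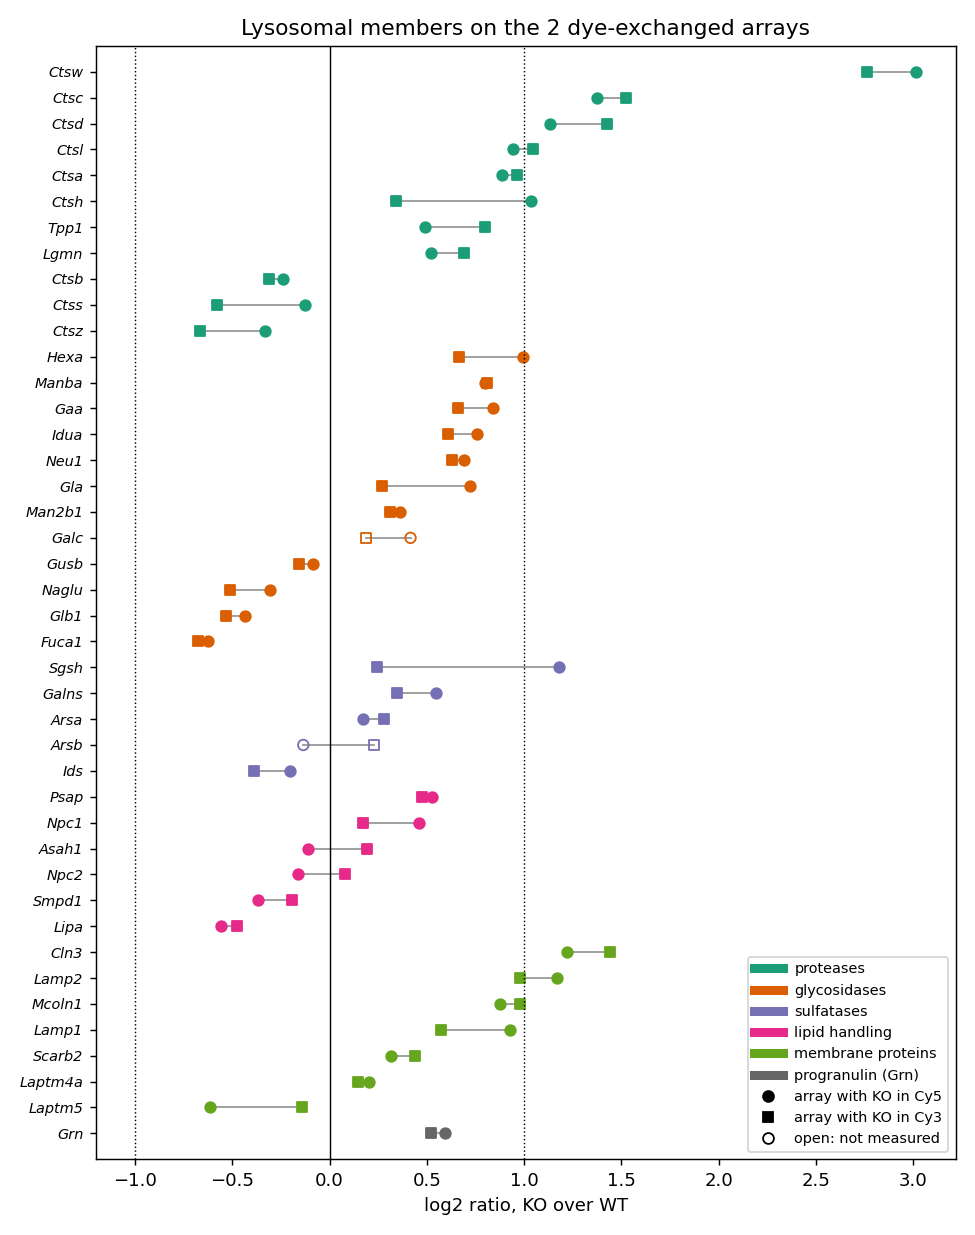
Log2 ratio of KO over WT (x axis) for each of the 42 members (rows, grouped by role and ordered by mean ratio), with circles for the array with KO in Cy5, squares for the array with KO in Cy3 and open symbols for the 2 members that were not measured. Dotted lines mark 2-fold: Ctsw, Ctsc, Cln3 and Ctsd lie past it on both arrays, and no member lies past it on the low side.

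**Figure D2:**
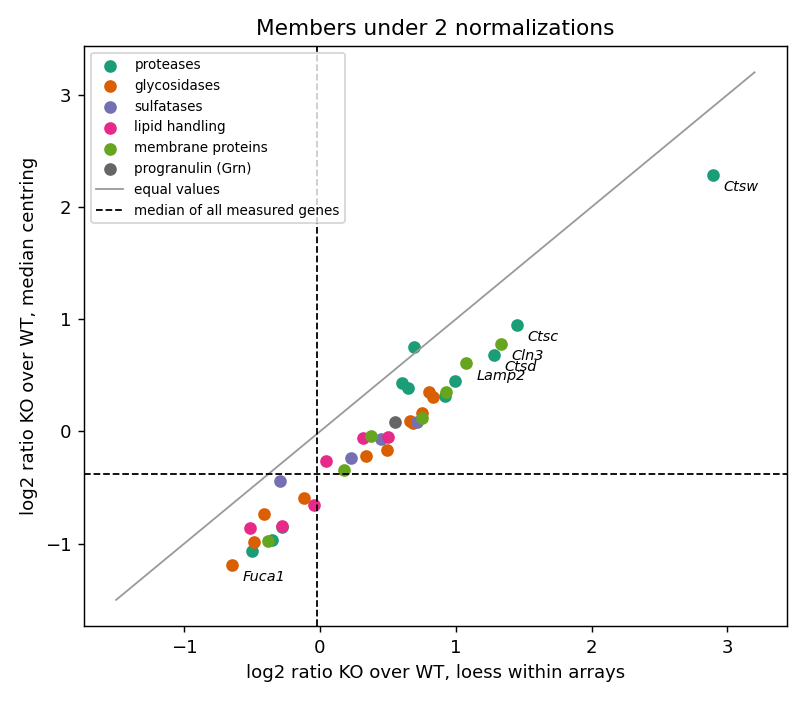
Mean log2 ratio of KO over WT for the 40 measured members after loess (x axis) and after median centring (y axis), coloured by role, with a solid line at equal values and dashed lines at the median of all measured genes (-0.02 on the x axis and -0.37 on the y axis). All members but Ctsh lie below the line of equal values, and most lie above both dashed lines.

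The arrays agreed closely for most members. The median technical SD was 0.12 over the measured members and 0.11 over all measured genes. The widest gap between the arrays was 0.93, for Sgsh, and 0 members followed the dye by 2-fold on both arrays. Just outside the call lay Ctsl (0.94 and 1.04) and Lamp2 (1.17 and 0.98), each 2-fold on 1 array only. Ctsh and Sgsh were also 2-fold on 1 array only.

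The 11 proteases included 3 of the 4 calls, and 8 of the 11 lay above 0 on both arrays (median 0.69, or 0.43 under median centring). Ctsw encodes cathepsin W, a cysteine protease known from CD8 T cells and natural killer (NK) cells. Its log2 intensities were 13.54 and 13.43 in the KO extract, against 10.52 and 10.67 in the WT extract. The ratio was 7.41-fold (log2 2.89 ± 0.18), the largest among the members in the main setting. With software-processed signals Ctsh, which was dim in WT, had the larger log2 ratio (3.22, against 2.98 for Ctsw). The probe lies on chromosome 19, 5465315 to 5465374 (mm9), and the Ctsw gene overlaps Fibp in RefSeq.

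Ctsc encodes cathepsin C, the dipeptidyl peptidase that activates granzymes by removing their terminal dipeptide. Its log2 intensities were 10.31 and 10.45 in the KO extract, against 8.94 and 8.93 in the WT extract. The WT values were nearly the same on both arrays, and the ratio was 2.73-fold (log2 1.45 ± 0.10). Ctsd encodes cathepsin D, an aspartic protease that starts the breakdown of many proteins. It measured 12.32 and 12.46 in the KO extract, against 11.19 and 11.04 in the WT extract, which is 2.43-fold (log2 1.28 ± 0.21). A second Ctsd probe gave log2 ratios of 1.63 and 1.36, so both probes were past 2-fold on both arrays.

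Among the other proteases, Ctsl (cathepsin L, a cysteine endopeptidase) stood at a log2 ratio of 0.99 ± 0.07 and Ctsa at 0.92 ± 0.05. Ctsa encodes a serine carboxypeptidase that also protects the sialidase and the beta-galactosidase of the lysosome. Its second probe gave 0.36, so the size of its ratio depended on the probe. Tpp1, a tripeptidyl peptidase lost in a childhood neuronal storage disease, stood at 0.65 ± 0.22, and Lgmn, an asparaginyl endopeptidase that processes other cathepsins, at 0.61 ± 0.12. Ctsh, an aminopeptidase, was well above background in KO on both arrays and in WT on neither. Its log2 intensities were 7.06 and 6.55 in the KO extract, against 6.02 and 6.21 in the WT extract. The mean over the 2 arrays gives a bound of at least 1.48-fold higher in KO. The log2 ratios were 1.04 and 0.34 (0.69 ± 0.49), so the array with KO in Cy3 lay below that bound.

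The 3 remaining proteases lay below 0 on both arrays. Ctsz, a carboxypeptidase, was the lowest: its log2 intensities were 10.88 and 10.49 in the KO extract, against 11.21 and 11.16 in the WT extract (log2 ratio -0.50 ± 0.24). Ctss, known in antigen-presenting cells for trimming the invariant chain of MHC class II, stood at -0.35 ± 0.32, with ratios of -0.12 and -0.58 on the 2 arrays. Ctsb, cathepsin B, stood at -0.28 ± 0.05. Under median centring the means of Ctsz, Ctss and Ctsb were -1.07, -0.97 and -0.85, with none called lower on both arrays. The proteases thus ran from well above to below the WT level, with no shared size of difference.

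**Figure D3:**
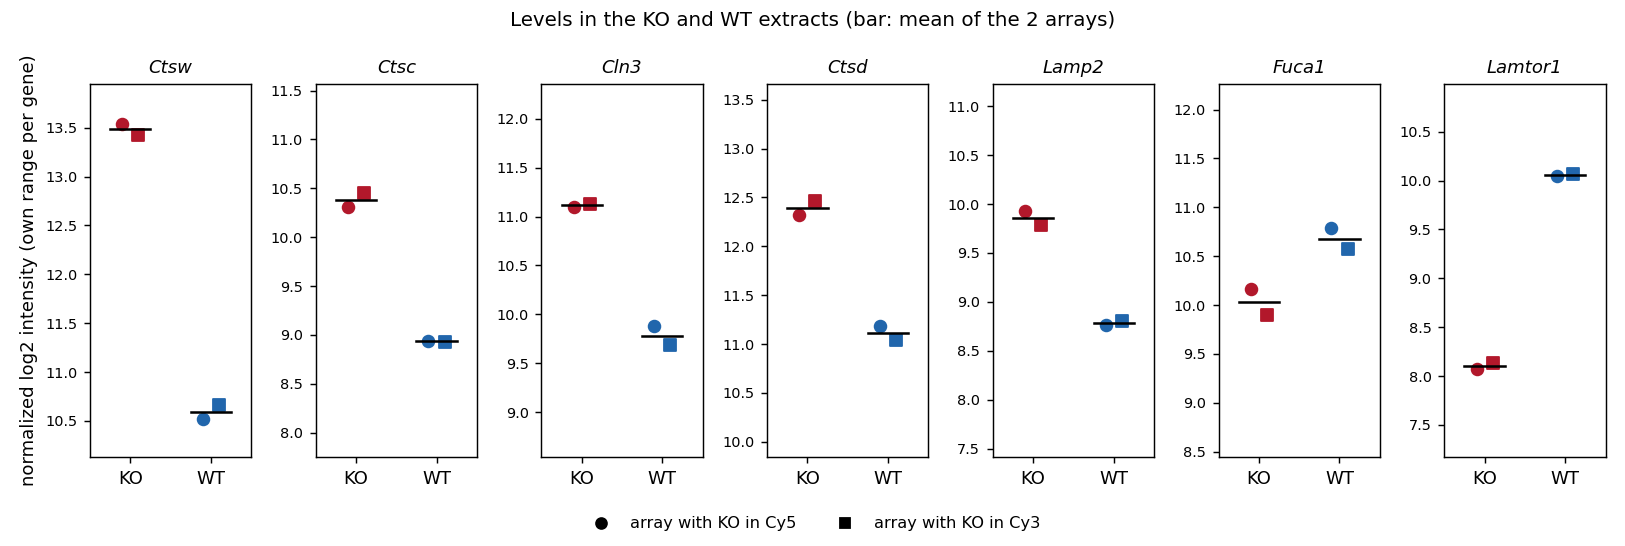
Normalized log2 intensity (y axis, a separate range of equal width for each gene) in the KO and WT extracts for the 4 called members, for Lamp2, for Fuca1 and for Lamtor1. Circles are the array with KO in Cy5, squares the array with KO in Cy3 and bars their mean; the KO points lie above the WT points for the 4 called members and Lamp2, and below them for Fuca1 and Lamtor1.

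The membrane proteins held the remaining call. Cln3 encodes a multispan protein of the lysosomal membrane, mutated in juvenile neuronal ceroid lipofuscinosis. Its log2 intensities were 11.10 and 11.13 in the KO extract, against 9.88 and 9.69 in the WT extract. The ratio was 2.52-fold (log2 1.33 ± 0.15). Its 2 other probes gave 1.17 ± 0.18 and 0.70 ± 0.27, in the same direction but with the second of them short of 2-fold on both arrays, and the Cln3 gene overlaps Apobr in RefSeq.

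Of the 7 membrane protein genes, 6 lay above 0 on both arrays (median 0.75, or 0.12 under median centring). Lamp2, a major glycoprotein of the membrane with a role in chaperone-mediated autophagy, had log2 intensities of 9.93 and 9.78 in the KO extract, against 8.76 and 8.80 in the WT extract (log2 ratio 1.07 ± 0.13). Its second probe gave 0.95 ± 0.02. Mcoln1, the calcium-releasing channel TRPML1, stood at 0.93 ± 0.07, and Lamp1, the other major glycoprotein and a marker of granule release in T cells, at 0.75 ± 0.25. Lower ratios belonged to Scarb2 (0.38 ± 0.09), the receptor that carries glucocerebrosidase to the lysosome, and to Laptm4a (0.18 ± 0.04), a small transmembrane protein. Both of these means turned below 0 under median centring (-0.04 and -0.34).

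Laptm5, a membrane protein of haematopoietic cells that directs T cell receptor chains to the lysosome, was the only membrane protein gene below 0 on both arrays. It measured 11.06 and 11.46 in the KO extract, against 11.67 and 11.61 in the WT extract, so the KO values were lower on both arrays but by unequal amounts (-0.38 ± 0.34, or -0.97 under median centring). Its second probe gave -0.44 ± 0.23.

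The glycosidases, which remove sugars one by one from glycoproteins, glycolipids and glycosaminoglycans, had no call in either direction. Of 11 measured, 7 lay above 0 on both arrays and 4 below 0 (median 0.49, or -0.17 under median centring). The highest was Hexa, the alpha chain of beta-hexosaminidase, with log2 intensities of 10.53 and 10.28 in the KO extract, against 9.54 and 9.61 in the WT extract (log2 ratio 0.83 ± 0.23). Manba, beta-mannosidase, had the closest agreement of any member, with 0.80 and 0.81 on the 2 arrays. Gaa, the acid glucosidase that degrades glycogen, stood at 0.75 ± 0.13 and its second probe at 0.35, Idua, which cleaves iduronic acid, at 0.68 ± 0.11, and Neu1, the lysosomal sialidase, at 0.66 ± 0.04. Gla (alpha-galactosidase A, 0.49 ± 0.32) and Man2b1 (alpha-mannosidase, 0.34 ± 0.04) were smaller and turned to -0.17 and -0.22 under median centring.

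Fuca1, which removes fucose, was the lowest member. Its log2 intensities were 10.16 and 9.90 in the KO extract, against 10.79 and 10.57 in the WT extract, and the ratio of -0.65 ± 0.04 was at least 1.5-fold on both arrays without reaching 2-fold. Under median centring its mean was -1.19, still with no call on both arrays. Glb1, the beta-galactosidase, stood at -0.48 ± 0.07, Naglu, which acts on heparan sulfate, at -0.41 ± 0.15, and Gusb, beta-glucuronidase, at -0.12 ± 0.05 (-0.98, -0.74 and -0.59 under median centring). Enzymes of 1 pathway did not share a direction: Idua and Sgsh, which act on heparan sulfate like Naglu, lay above 0 on both arrays. Galc, which degrades galactosylceramide, was above background in KO on 1 array and in WT on neither, and has no measured ratio.

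The sulfatases, which strip sulfate from glycosaminoglycans and sulfatide, had no call either. Of 4 measured, 3 lay above 0 on both arrays and 1 below 0 (median 0.34, or -0.15 under median centring). Sgsh, the sulfamidase, measured 13.59 and 13.22 in the KO extract, against 12.41 and 12.97 in the WT extract. The arrays differed most for this member (log2 ratios of 1.18 and 0.25), and its second probe gave 0.62 and 0.06. Galns, which acts on keratan sulfate, stood at 0.45 ± 0.14 and Arsa, which acts on sulfatide, at 0.23 ± 0.08, and both turned below 0 under median centring (-0.07 and -0.24). Ids, the iduronate sulfatase, stood at -0.30 ± 0.13 (-0.44 under median centring), from 6.94 and 6.94 in the KO extract, against 7.14 and 7.33 in the WT extract. Arsb was above background in each extract on 1 array only.

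The genes of lipid handling, which turn over sphingolipids and cholesterol esters or export cholesterol, were spread around 0. Of 6 measured, 2 lay above 0, 2 below 0 and 2 were mixed (median 0.00, or -0.46 under median centring). Psap, the precursor of the saposins that present sphingolipids to their hydrolases, was the highest, with 10.91 and 10.75 in the KO extract, against 10.38 and 10.28 in the WT extract (log2 ratio 0.50 ± 0.04). Npc1, the membrane protein that exports cholesterol, stood at 0.32 ± 0.20, and both of these turned to -0.05 under median centring. Npc2, the soluble partner that hands cholesterol to it, stood at -0.04 ± 0.17 (-0.66 under median centring). Asah1, acid ceramidase, stood at 0.04 ± 0.21 (-0.27 under median centring), with a second probe at 0.10 ± 0.04. Smpd1, acid sphingomyelinase, stood at -0.28 ± 0.12 (-0.84 under median centring). Lipa, acid lipase, was the lowest, with 7.90 and 8.05 in the KO extract, against 8.46 and 8.53 in the WT extract (-0.52 ± 0.06, or -0.86 under median centring).

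Grn encodes progranulin, which lysosomal proteases cut into granulins. It measured 9.84 and 9.62 in the KO extract, against 9.24 and 9.10 in the WT extract, a log2 ratio of 0.56 ± 0.05. The KO values lay above both WT values without reaching 2-fold.

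Chromosome 7, which carries Lamtor1, also carries 5 of the members, among them 3 of the 4 called ones. In mm9 coordinates, the probe of Ctsc (95458436 to 95458495) lies 13.6 Mb before the Lamtor1 probe (109060334 to 109060393), that of Cln3 (133715596 to 133715655) 24.7 Mb after it and that of Ctsd (149561962 to 149562021) 40.5 Mb after it. Smpd1 and Tpp1 lie nearer, 3.65 and 3.83 Mb after it, and were not called. Within 5 Mb of the Lamtor1 probe, the 106 other measured genes had a median log2 ratio of -0.30, with 0 called higher and 10 lower. Of all measured genes, 2.46% were called higher and 6.88% lower. Without the 5 members on chromosome 7, 1 of 35 measured members was called (Ctsw), 23 lay above 0 on both arrays and the median was 0.45. The call share over all measured genes was then 2.44% higher, and 38.6% of all measured genes lay above 0 on both arrays. The part of the shared chromosome in the 3 calls was not tested.

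The E-box was looked for in the promoters of the RefSeq table of GRCm38.p6, which span 250 bases before to 50 bases after a start site. Of the 42 members, 36 matched an entry by symbol, with 40 promoters among them, and Asah1, Npc1, Ctsh, Ctsw, Galns and Ctsb did not. The promoters of the called members with an entry are shown from 5′ to 3′ on the gene's strand, with each CACGTG in capitals, because 2 of these members hold the E-box and the third does not. For Cln3, which has 2 entries, the one with the E-box is shown.
Cln3, chr7:126583187-126583486, minus strand, GRCm38.p6: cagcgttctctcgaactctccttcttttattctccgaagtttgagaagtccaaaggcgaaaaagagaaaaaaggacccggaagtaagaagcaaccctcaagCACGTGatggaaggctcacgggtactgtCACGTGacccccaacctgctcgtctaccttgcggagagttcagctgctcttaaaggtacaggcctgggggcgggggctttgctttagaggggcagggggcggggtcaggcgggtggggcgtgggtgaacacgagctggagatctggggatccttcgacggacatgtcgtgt
Ctsd, chr7:142387778-142388077, minus strand, GRCm38.p6: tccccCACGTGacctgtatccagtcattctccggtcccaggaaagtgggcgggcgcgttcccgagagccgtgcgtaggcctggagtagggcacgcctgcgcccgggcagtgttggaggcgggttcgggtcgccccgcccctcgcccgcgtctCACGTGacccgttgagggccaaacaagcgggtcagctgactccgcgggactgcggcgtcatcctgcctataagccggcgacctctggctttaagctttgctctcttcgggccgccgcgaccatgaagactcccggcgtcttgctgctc
Ctsc, chr7:88277835-88278134, plus strand, GRCm38.p6: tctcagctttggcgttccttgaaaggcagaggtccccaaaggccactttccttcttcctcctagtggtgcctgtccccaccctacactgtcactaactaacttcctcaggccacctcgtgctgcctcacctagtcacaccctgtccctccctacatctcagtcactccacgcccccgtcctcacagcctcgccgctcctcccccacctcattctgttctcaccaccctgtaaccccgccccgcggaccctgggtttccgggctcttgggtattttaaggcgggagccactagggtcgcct

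CACGTG reads the same on both strands. Of the 36 matched members, 13 (36.1%) held it, against 8.09% of the 27025 genes in the table, 7.15% of its 32851 promoters and 11.9% of the 9212 measured genes with an entry. The longer forms contain the shorter one. TCACGTGA was found in 5 members (13.9%, against 1.12% of genes, 0.974% of promoters and 2.31% of measured genes). The same 8 letters with a G before and a C after them, the full palindrome of the CLEAR motif of lysosomal genes, were found in 1 member, Cln3 (0.370% of genes, 0.326% of promoters and 0.814% of measured genes). Of 21 sites in all, 20 began before the start site and 16 of these within 150 bases of it, and 6 members held several. A match is a stretch of letters and no evidence of binding. The 22 bases around single sites are shown for members with high and low ratios, with the E-box in capitals.
Ctsa, 12 bases before the start, chr2:164833753-164833774, plus strand, GRCm38.p6: caaactgtCACGTGatgcagat
Mcoln1, 45 bases before the start, chr8:3500466-3500487, plus strand, GRCm38.p6: gccccgctCACGTGaccgcggc
Lamp1, 61 bases before the start, chr8:13159092-13159113, plus strand, GRCm38.p6: caagatatCACGTGgtccagcg
Naglu, 73 bases before the start, chr11:101070013-101070034, plus strand, GRCm38.p6: cttcaggtCACGTGgcccgagg
Glb1, 48 bases before the start, chr9:114401022-114401043, plus strand, GRCm38.p6: ttctgagtCACGTGgcctacag

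Members with and without the E-box both held calls. The 13 with it were all measured, with a median log2 ratio of 0.75 (range -0.48 to 1.33), and 11 lay above 0 on both arrays, 2 of them called (Cln3 and Ctsd). The 2 below 0 on both arrays were Glb1 and Naglu, whose sites are among those printed. The 21 measured members whose promoters lacked it had a median of 0.34 (range -0.65 to 1.45), with 12 above 0 and 8 below 0 on both arrays and 1 called, Ctsc. Over all measured genes with an entry, the median was 0.04 for the 1096 with the E-box and -0.06 for the 8116 without it. Of those with it 43.2% lay above 0 on both arrays and 3.28% were called higher, and of those without it 35.9% and 2.49%. Under median centring the members' medians became 0.17 with the E-box and -0.22 without it, and those of all measured genes -0.33 and -0.41. The difference between members with and without the E-box was not tested.

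**Figure D4:**
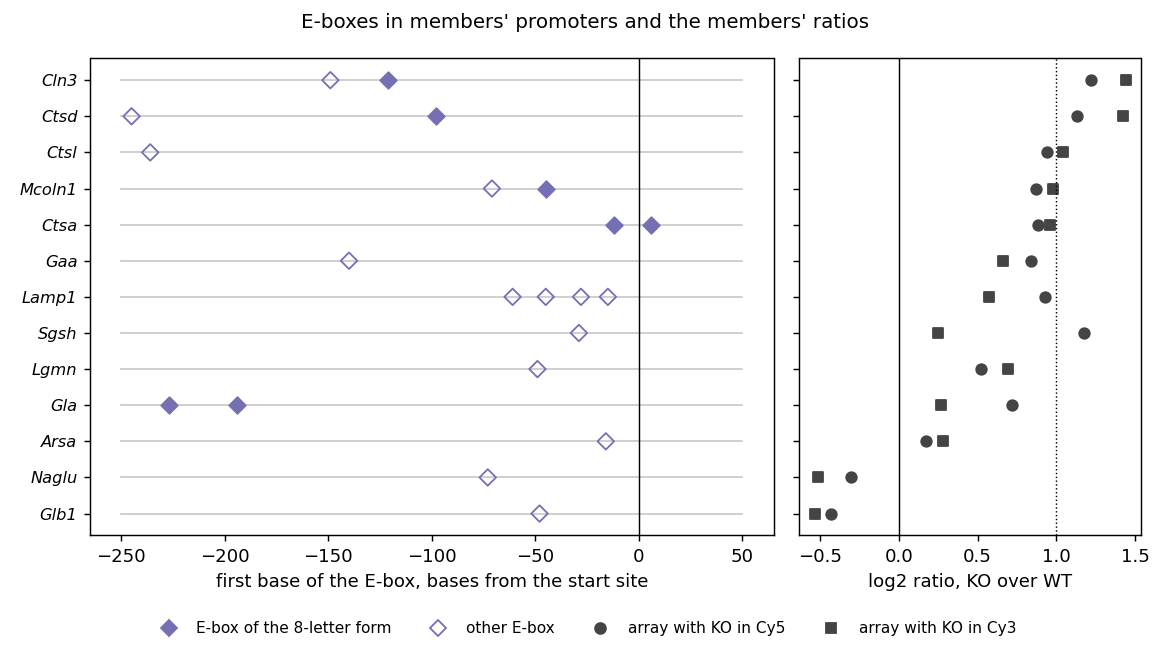
Left, position of the first base of each E-box from the start site (x axis, in bases) in the promoters of the 13 members that hold one, with filled diamonds for TCACGTGA and open diamonds for other E-boxes; right, the members' log2 ratio of KO over WT on the arrays with KO in Cy5 (circles) and KO in Cy3 (squares). Rows run by mean ratio, from Cln3 at 1.33 to Glb1 at -0.48, and Naglu and Glb1 are the rows with both points below 0.

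Further genes of the lysosome that are no members were called in both directions. Of 79 such genes on the array, 65 were measured, 8 called higher and 2 lower (12.3% and 3.08%, beside 2.46% and 6.88% of all measured genes). Their median was 0.17, or -0.13 under median centring. Among 23 measured enzymes and their activators, 11 were above 0 on both arrays and 9 below 0 (median 0.01, or -0.25 under median centring). Dpp7, a dipeptidyl peptidase of quiescent lymphocytes, stood at 1.82 ± 0.02, while Scpep1, a serine carboxypeptidase, was called lower at -2.30 ± 0.15.

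Among 28 measured membrane proteins 20 were above 0 on both arrays and 4 below 0 (median 0.22, or 0.03 under median centring). Ctns, the cystine exporter, stood at 1.64 ± 0.05, Spns1, a lipid transporter, at 1.64 ± 0.07, and Clcn7, a chloride-proton exchanger, at 1.18 ± 0.21. The peptide transporter gene Abcb9 was called lower at -1.77 ± 0.01. Of 9 measured genes of the delivery route 7 lay above 0 on both arrays (median 0.34, or -0.10 under median centring). Gnptg, a subunit of the enzyme that places the mannose tag, stood at 1.70 ± 0.07 and Gga2, a sorting adaptor of the Golgi, at 1.43 ± 0.14. Of the receptors of the tag, Igf2r stood at 0.86 ± 0.27 and M6pr at 0.39 ± 0.05 (-0.10 under median centring), and neither was called. Of 5 measured inhibitors of cathepsins, Cstb, cystatin B, was called higher at 1.33 ± 0.02. Cst7, cystatin F, an inhibitor of cathepsin C, stood at -0.61 ± 0.25 and Cst3, cystatin C, at -0.49 ± 0.12, neither of them called.

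Genes listed as markers of other cell types differed between the extracts as well, and several members are best known from such cells. Of 12 markers of CD8 T and NK cells, 11 were measured, 10 lay above 0 on both arrays and 6 were called higher. These were Gzma (granzyme A, 5.45 ± 0.35), the chemokine gene Xcl1 (4.03 ± 0.03), the lectin receptor genes Klrc1 (1.80) and Klrd1 (1.78), and Klrb1c and Klra8, whose probes were not well above background in WT on either array and which were at least 2.18-fold and 2.26-fold higher. The summed linear intensity of all 12, measured or not, was 26999 and 25388 in the KO extract, against 4392 and 4349 in the WT extract. Without Gzma, left out after seeing the data, it was 10103 and 10364 in the KO extract, against 4066 and 3942 in the WT extract. Cd8a stood at 0.67 ± 0.03 and Cd8b1 at -0.55 ± 0.01, neither called, and Ncr1, a defining NK receptor, was above background in KO on 1 array and in WT on neither. The cells had been isolated as CD4+ before culture. Whether these genes, Ctsw or Ctsc were expressed by CD8 T or NK cells or by the CD4+ T cells was not tested.

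Of 25 myeloid markers 13 were measured, with 5 called higher (Fcer1g at 4.35, S100a9 at 3.96 with WT above background on 1 array only, and S100a8, Tyrobp and Lyz1, at least 4.92-fold, 4.30-fold and 2.97-fold) and H2-Ab1 called lower at -1.90 ± 0.07. Summed over all 25, measured or not, the linear intensity was 40052 and 39370 in the KO extract, against 21920 and 22475 in the WT extract. Most of this sum came from the bright probes of Itgam and Siglech, whose other probes were not measured. Without these 2 genes, left out after seeing the data, it was 7759 and 7111 in the KO extract, against 3479 and 3498 in the WT extract. The defining markers Adgre1, Cd14, Cybb, C1qa and C1qc were well above background in neither extract on either array, and C1qb and Fcgr1 in each extract on 1 array. Csf1r (0.40 ± 0.15), Cd74 (0.19 ± 0.01), Itgam (0.70 ± 0.07) and Siglech (0.82 ± 0.02) were above background in both extracts on both arrays, none of them called. Mpeg1 lay below 0 on both arrays (-0.66 ± 0.08), without a call. Of the 13 measured, 11 lay above 0 on both arrays and 2 below 0. Lyz2 and Fcgr3 were above background on both arrays in KO and on neither in WT, at least 1.39-fold and 1.37-fold higher in KO. Ctss, Ctsz and Laptm5, which are abundant in myeloid cells, lay below 0, and Lgmn, Ctsh and Grn above 0, on both arrays. The part of myeloid RNA in these ratios was not tested. Which cells expressed the called genes of the myeloid list, Fcer1g and Tyrobp among them, was not tested either. Of 6 B cell markers Cd79b (0.62) and Cd22 (0.32) were measured, and Cd79a was above background in neither extract. All 6 together, measured or not, summed to 770 and 743 in the KO extract, against 658 and 605 in the WT extract.

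The 7 T cell markers were all well above background in both extracts, but 4 of them lay below 0 on both arrays (list median -0.49), Cd4 of the labelled type among them. Cd3e (0.09 ± 0.01), Cd28 (0.04 ± 0.11) and Lck (0.16 ± 0.06) lay near 0 after loess and at -0.53, -0.56 and -0.48 under median centring, while the other CD3 chains measured, Cd3d (-0.79 ± 0.09) and Cd3g (-0.49 ± 0.05), lay below 0 without a call. Cd4 (-1.18 ± 0.05) and Cd5 (-1.12 ± 0.12) were called lower. The summed linear intensity of the 7 was 49617 and 49129 in the KO extract, against 61762 and 59708 in the WT extract.

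**Figure D5:**
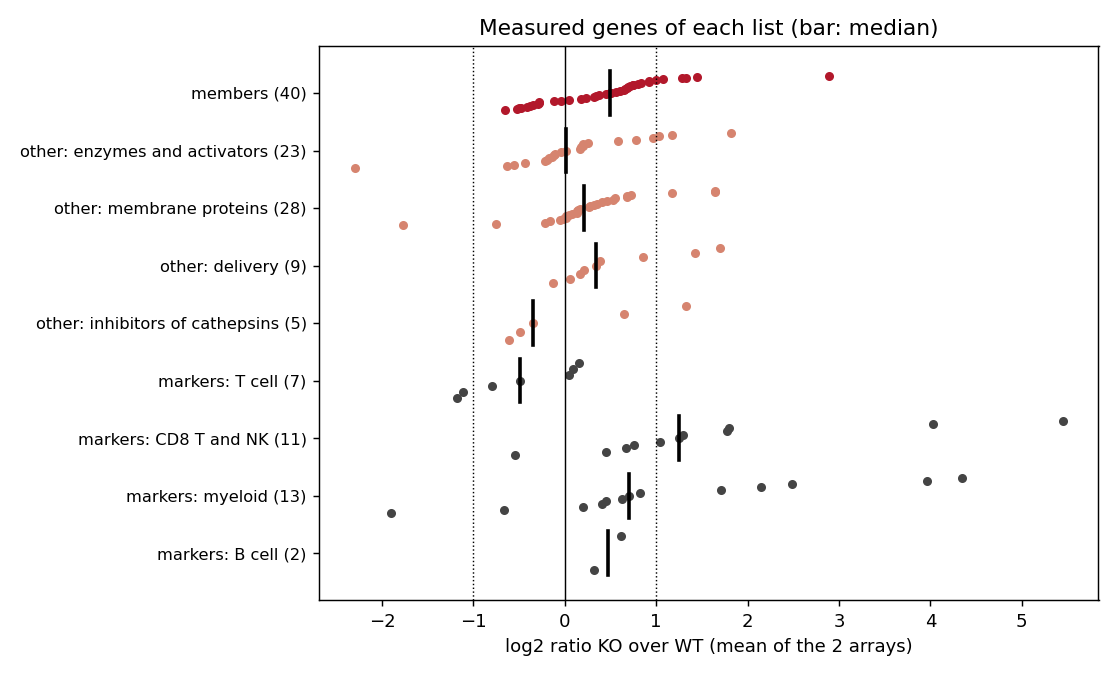
Mean log2 ratio of KO over WT (x axis) for each measured gene of the members, of the 4 groups of further lysosomal genes and of the 4 marker lists, with the number measured in brackets and a bar at each median. The members centre on 0.50 (-0.046 under median centring) and the CD8 T and NK markers on 1.25, and the T cell markers lie mostly below 0 (median -0.49).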

How the data were processed

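Agilent 2-colour arrays of 1 KO and 1 WT RNA extract were analysed, 2 arrays on 1 slide with dyes exchanged, per the labels 1 biological replicate. Hybridisation used 400 ng of each cRNA at 65 °C over 17 h, per the labels' protocols. Agilent Feature Extraction 10.7.3.1 read the images, per the file headers, while the submitters' processing notes give 10.5.1.1. The deposited scanner files hold mean and local background intensity per spot and a processed intensity, background-subtracted and dye-normalized by the authors' software, per the file headers. Values in the deposited series matrix are log10 ratios (Cy5 over Cy3), equal to the scanner software's within 0.000000001 for all 44397 spots of each array and with a median of 0 on each, so no later centring was applied.

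Signals were corrected with normexp (offset 50, which shrinks dim ratios) and loess within arrays (limma 3.58.1, R 4.3.3; control spots weighted 0, 206 and 214 outlier spots dropped). Spots of a probe were averaged, ratios turned to KO over WT by the labelled dyes, and the 2 arrays averaged. Levels are log2 intensities after Aquantile normalization between arrays. The brightest probe stood for a gene. A probe not well above background in 1 RNA gives only a bound ("at least"), against the lowest well-above-background signal per array or the probe's own. The bound is on the mean of the 2 arrays, so 1 array can lie below it. Names came from accessions (26055 of 39429 probes), symbols or synonyms matched to RefSeq GRCm38.p6, and probe positions are mm9, per the file headers. Of the members, 12 overlap another protein-coding gene in RefSeq, and cross-hybridisation was not checked. On simulated arrays all 50 probes raised and all 50 lowered by 2 on the log2 scale were called, and 0 of 42820 unchanged ones. Of those shifted by exactly 2-fold, 26% raised and 24% lowered were called. The shifted probes were all well above background, and the noise was drawn at a small fixed setting without variation between animals. These counts check the processing steps and give no rate of false calls in the real arrays.

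Members, gene lists, alternatives and the naming rule (all members by role, full values for called, highest and lowest ones, and called genes of the other lists) were chosen with earlier results of these data known. Some genes of the further lists are counted but not reported here by name. Plots used Python 3.11.15 and matplotlib 3.10.9.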

Additional observations from a re-analysis of the deposited data

How the results depend on the processing

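No paired analysis was possible because each genotype had 1 RNA extract. Offset, background method and filter moved no call of the 4 members away. Software-processed signals and the series matrix called 7 members higher (Ctsh, Ctsl and Lamp2 added), beside 5.83% of all measured genes, against 2.46% in the main setting. Offset 1 called 6 members higher, beside 4.09% of all measured genes. All 4 calls were made on either array alone: the array with KO in Cy5 called 7 and that with KO in Cy3 called 5, with member medians of 0.53 and 0.34. Of all measured genes, these arrays alone called 3.74% and 2.88% higher. At 1.5-fold, 13 members were higher and 1 lower (Fuca1), beside 1009 and 2008 of all genes. Median centring called 1 (Ctsw) and left 7 members above 0 on both arrays, 9 below 0 on both and the others of mixed sign. It reversed the medians of the members (-0.046) and of the further lysosomal genes (-0.13), and put 9 members' means below 0 that lay above it. Of all calls, 11.2% were then higher (111 against 881 lower), against 26.3% after loess (366 against 1024 lower). With the all-gene median subtracted, chosen after seeing the data, the medians were 0.36 and 0.28. Then 4 members were called higher, beside 2.37% of all measured genes, and 0 members' means differed in sign from loess. Leaving out the members on chromosome 7 left 1 call, beside 2.44% of all measured genes called higher. Ranges over the settings were 2.29 to 3.02 for Ctsw, 0.95 to 1.69 for Ctsc, 0.78 to 1.48 for Cln3 and 0.68 to 1.43 for Ctsd. The median of the further lysosomal genes was 0.31 with processed signals or series matrix values, 0.26 with offset 1, 0.13 with no filter, 0.20 with a stricter one and 0.19 with KO in Cy5 alone. Lamtor1 was -2.18 with processed signals or series matrix values, -2.02 with no background subtraction, -2.17 with offset 1, -2.39 under median centring and -1.98 relative to all genes. Counts over all genes were 867 higher and 1614 lower with processed signals and 609 higher with offset 1. Galc and Arsb were too dim to compare. The causes of these shifts were not tested.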
